A study of Homo sapiens with 3 samples.

Results

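The ERBB receptors EGFR, ERBB2 and ERBB3 and the EGF-like ligands TGFA, AREG, EREG, HBEGF and BTC were followed across 3 microarrays of HSC-3 cells, an established human line derived from a squamous carcinoma of the tongue. Of these 8 genes, chosen by name, 7 had an annotated probe, each of them exactly 1, among 17614 genes with a probe, and AREG was not analysed here. Parental cells carried no shRNA. The shScr cells carried a scrambled shRNA from a lentiviral vector with GFP, and the shDKK3 cells an shRNA to DKK3, which encodes a secreted protein related to the dickkopf WNT antagonists, from a vector of the same kind. Both vector-bearing lines, unlike the parental cells, were grown with puromycin. Each condition was measured on 1 array, so no test between conditions was possible, and all differences are between arrays. Vector, selection and array cannot be told apart in a comparison with the parental array.

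ERBB receptors are tyrosine kinases of the cell surface that pair after binding a ligand and signal through the RAS-ERK and PI3K-AKT pathways. EGFR binds TGFA, AREG, EREG, HBEGF and BTC, ERBB2 has no known ligand of its own and acts as a partner, and ERBB3, whose kinase is weak, binds neuregulins. The ligands are made as membrane-anchored precursors that metalloproteases such as ADAM17 and ADAM10 cut free. EGFR is often highly expressed in squamous cell carcinoma of the head and neck and is a drug target there.

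The stretches of 250 bases before the annotated starts of EREG and HBEGF are shown because these ligands had the largest differences among the 7 genes from the parental array. They were taken from RefSeq (GRCh38.p14) and run 5′ to 3′ in the direction of the gene, with matches to the searched motifs in capitals. EREG lies at chr4:74364895-74365144 (plus strand) and HBEGF at chr5:140346604-140346853 (minus strand).
EREG: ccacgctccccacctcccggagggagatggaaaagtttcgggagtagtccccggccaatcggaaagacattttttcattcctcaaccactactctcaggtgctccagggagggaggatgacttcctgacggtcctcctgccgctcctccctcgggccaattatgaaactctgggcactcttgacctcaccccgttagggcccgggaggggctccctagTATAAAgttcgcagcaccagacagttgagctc
HBEGF: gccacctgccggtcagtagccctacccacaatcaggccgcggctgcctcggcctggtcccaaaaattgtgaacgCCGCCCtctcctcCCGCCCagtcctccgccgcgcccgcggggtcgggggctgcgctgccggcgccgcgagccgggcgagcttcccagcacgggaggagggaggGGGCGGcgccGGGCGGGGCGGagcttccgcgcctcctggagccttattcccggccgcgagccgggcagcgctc

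The motifs were searched on both strands. The TATA box (TATAAA) matched EREG at 1 position, beginning 32 bases before the start, and did not match HBEGF; it was present in 10.7% of 35116 promoter stretches of the same length. The GC box (GGGCGG) matched HBEGF at 5 positions, of which the closest pair overlap by a base, and did not match EREG; 42.6% of the stretches held it. The AP-1 motif (TGANTCA) matched neither and was present in 6.57% of the stretches. These matches describe letters in the window alone.

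DKK3, the gene targeted by the shRNA, had deposited intensities of 309 on the parental array, 226 on shScr and 170 on shDKK3. Here and below, deposited intensity is the authors' normalised value, on a scale where the median of each array is 25. After background correction and quantile normalisation DKK3 was at -0.39 against shScr and -0.71 against parental (log2), short of 2-fold in both comparisons. Its -0.387 against shScr was less than the robust SD of 0.391 that genes of like signal showed between shScr and parental. The difference to parental was beyond it. For 33.0% of genes against shScr and 10.5% against parental, the difference was as large in either direction. Between shScr and parental DKK3 was at -0.32. With the deposited background column subtracted, DKK3 on shDKK3 was at 0.17 against shScr and 0.23 against parental. All 8 squamous epithelial markers lay above the blank spots on each array, as did 2 to 4 of 7 fibroblast, 2 or 3 of 3 endothelial, 2 or 3 of 4 leukocyte and 1 of 3 melanocyte markers. The fibroblast markers summed to 131, 114 and 148 in deposited intensity on parental, shScr and shDKK3. PTPRC, the pan-leukocyte marker, was above the blanks on no array. The summed deposited intensity of the squamous markers was 17292 on parental, 18736 on shScr and 51981 on shDKK3, and its part in the differences below was not tested.

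HBEGF, the heparin-binding ligand of EGFR and ERBB4, had the largest differences of the 7 genes. Its deposited intensity was 224 on the parental array, 72.7 on shScr and 63.8 on shDKK3. The parental array was high and the arrays of both vector-bearing lines were low and close to each other. After normalisation HBEGF was 2.46-fold lower on shDKK3 than on parental (log2 difference -1.30) and 2.23-fold lower on shScr than on parental (-1.16). These differences share the parental array, and in bulk RNA fewer expressing cells and less RNA per cell cannot be told apart. Between shDKK3 and shScr the difference was -0.14, less than the 0.33 robust SD that genes of like signal showed between the control arrays (shScr minus parental). This robust SD is the spread used for each gene below, since there were no replicates, and it holds the differences between the control lines as well as noise. The HBEGF probe stood 152 blank SDs above the blank spots on parental, 79.1 on shScr and 57.4 on shDKK3.

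**Figure D1:**
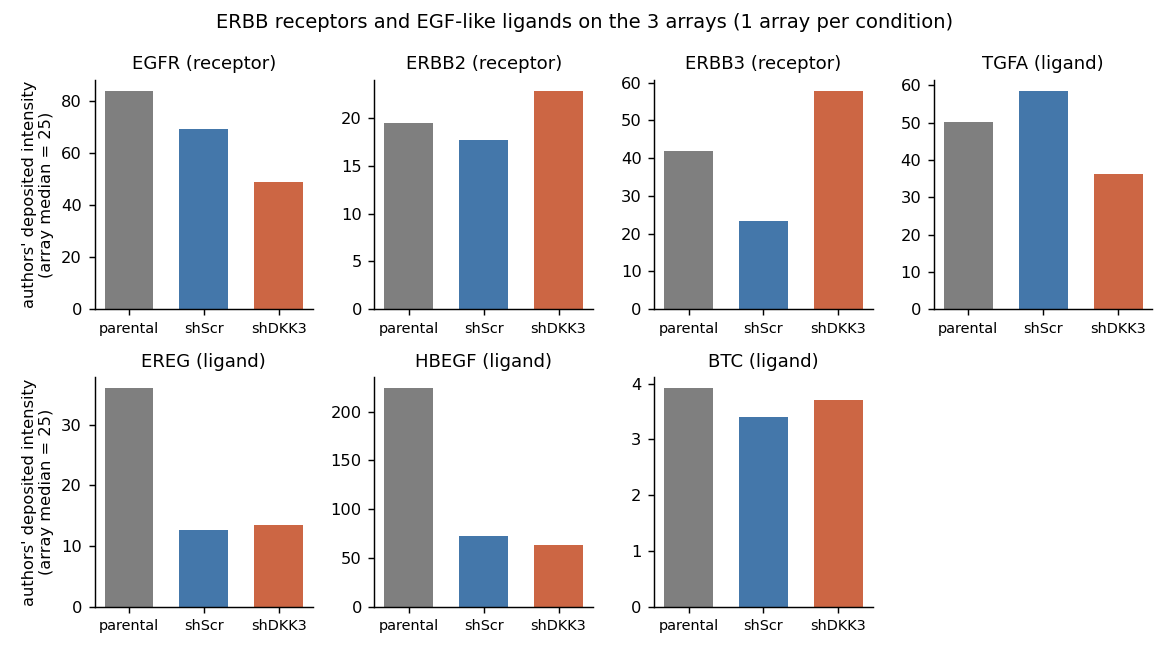
Deposited intensity (linear axis from 0, array median 25) of the 7 genes, with 1 bar for each array and a scale of its own for each gene, since levels of different probes are not comparable. HBEGF (224, 72.7 and 63.8) and EREG (36.0, 12.7 and 13.4) were high on the parental array alone, and ERBB3 (41.8, 23.4 and 57.9) was highest on shDKK3.

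EREG, which encodes epiregulin, a ligand of EGFR and ERBB4, was likewise highest on the parental array, with a dimmer probe. Its deposited intensity was 36.0 on parental, 12.7 on shScr and 13.4 on shDKK3, which makes it 2.68-fold lower on shDKK3 and 2.83-fold lower on shScr than on parental. These deposited differences lay at percentiles 4.53 and 1.70 of all genes, and those of HBEGF, 3.51-fold and 3.08-fold, at percentiles 1.39 and 1.25. The normalised differences were smaller, at -0.51 for shDKK3 and -0.47 for shScr against parental (log2, percentiles 11.3 and 5.64), since the normalisation adds an offset that shrinks the folds of dim probes. As large a difference in either direction was found for 20.1% and 10.7% of genes. The spread for EREG was 0.12, and shDKK3 differed from shScr by -0.04. With the deposited background column subtracted, EREG was 0.04 above parental on shDKK3 and 0.05 above it on shScr. On the parental array this column equalled 101% of the EREG spot itself, against 52.0% for HBEGF, and over all probes it followed the spots with correlations of 0.886 to 0.932.

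TGFA, which encodes transforming growth factor alpha, was dimmest on shDKK3, with deposited intensities of 50.3 on parental, 58.6 on shScr and 36.2 on shDKK3. It was 1.32-fold lower than shScr (log2 difference -0.40, spread 0.25) and 1.14-fold lower than parental (-0.19, within that spread). Its signal on shScr exceeded parental by 0.21, also within the spread. A difference to shScr as large as that of TGFA, in either direction, was found for 31.8% of genes. Subtracting the deposited background column put TGFA on shDKK3 at -0.09 against shScr and -0.06 against parental. BTC, which encodes betacellulin, was close to the blanks on all arrays, at 2.60, 3.63 and 3.29 blank SDs above them on parental, shScr and shDKK3. Its deposited intensities of 3.92, 3.40 and 3.70 differed between arrays by less than its spread after normalisation.

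EREG and BTC belong to a run of EGF-family genes on chromosome 4, in which EPGN, EREG, AREG and BTC follow each other with no other protein-coding gene of the RefSeq table beginning between them. EPGN, which encodes epigen, had deposited intensities of 8.13 on parental, 8.60 on shScr and 9.10 on shDKK3, and its normalised differences were 0.03 for shDKK3 and 0.07 for shScr against parental. The parental excess of EREG was not seen at the probes for EPGN and BTC, both of them dim.

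Of the receptors, EGFR had lower and ERBB3 higher signal on the shDKK3 array, and ERBB2 differed by less than its spread in all 3 comparisons. EGFR had deposited intensities of 84.0 on parental, 69.3 on shScr and 48.8 on shDKK3. It was 1.25-fold lower on shDKK3 than on shScr (log2 difference -0.32) and 1.34-fold lower than on parental (-0.42), beyond the spread of 0.29 but well short of 2-fold. The control arrays differed by -0.10, within the spread. As large a difference in either direction was found for 38.0% of genes against shScr and 26.0% against parental. Subtracting the deposited background column put EGFR at -0.10 against shScr and -0.28 against parental, both smaller in size than 0.29. ERBB2, the ligandless partner receptor, had deposited intensities of 19.5, 17.7 and 22.9 on parental, shScr and shDKK3. Its normalised differences were 0.08 for shDKK3 against shScr and 0.10 against parental, beside a spread of 0.12.

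ERBB3, the neuregulin receptor, was the member with the largest difference between shDKK3 and shScr. Its deposited intensity was 41.8 on parental, 23.4 on shScr and 57.9 on shDKK3, so shScr was the lowest array and parental lay between the others. After normalisation it was 1.55-fold higher on shDKK3 than on shScr (log2 difference 0.63, spread 0.20) and 1.26-fold higher than on parental (0.33). It was also 1.23-fold lower on shScr than on parental (-0.30), so about as much of the difference to shScr lay between the control arrays as between shDKK3 and parental. In the deposited values ERBB3 was 2.47-fold higher than on shScr, at percentile 93.1, beside 14.8% of genes past 2-fold in that direction and a median of all genes of 0.32 (log2). With the deposited background column subtracted the difference was 0.02.

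**Figure D2:**
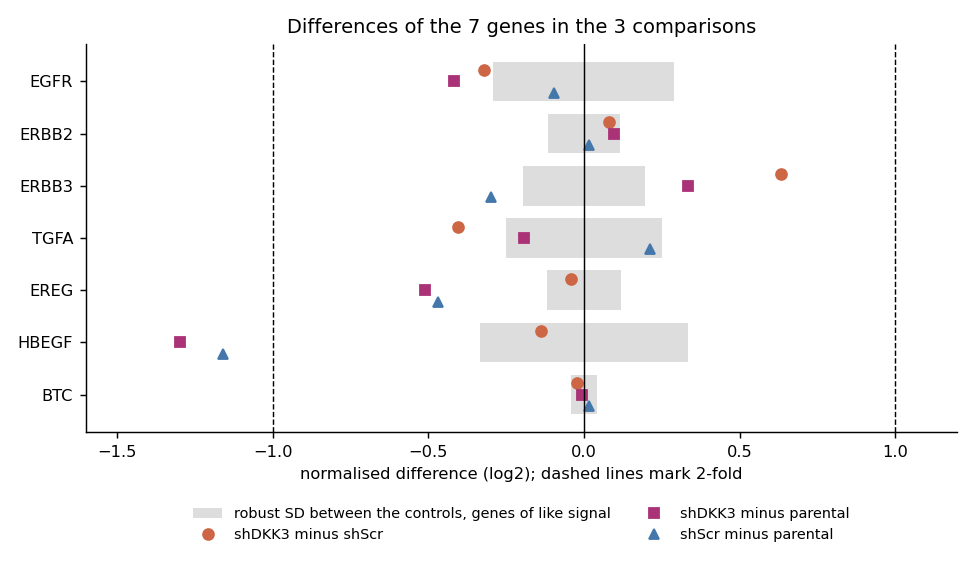
Normalised log2 differences of the 7 genes in the 3 comparisons, with grey bars for the robust SD between the control arrays over genes of like signal and dashed lines at 2-fold. HBEGF lies past 2-fold against parental for both vector-bearing lines, ERBB3 is the highest point at 0.63, and no gene reaches 2-fold between shDKK3 and shScr.

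As a group, the 7 genes showed 0 members at least 2-fold higher and 0 lower on shDKK3 than on shScr, where 2.96% of 15148 genes were higher and 4.48% lower. Their median was -0.04 against 0.03 for all genes, and 5 of 7 lay below 0, beside 44.0% of all genes. The count was 3 of 7 in the deposited values and after scaling arrays to a common median or a common 75th percentile. The median of all genes was 0.32, 0.05 and 0.36 in these settings, so the 44.0% does not apply to them. It was 4 of 7 members with the deposited background column subtracted and with the trend with gene length removed. Against parental, 0 members were at least 2-fold higher (0.862% of all genes) and 1 was lower, HBEGF (3.04% of all genes), with a median of -0.19 against 0.03. In the deposited values HBEGF and EREG were both at least 2-fold lower, beside 10.9% of all genes. Between the controls, shScr minus parental, 0 members were higher (0.404% of all genes) and 1 was lower, again HBEGF (0.983% of all genes), with a median of -0.10 against 0.00. In the deposited values the lower members were again HBEGF and EREG, beside 6.35% of all genes.

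**Figure D3:**
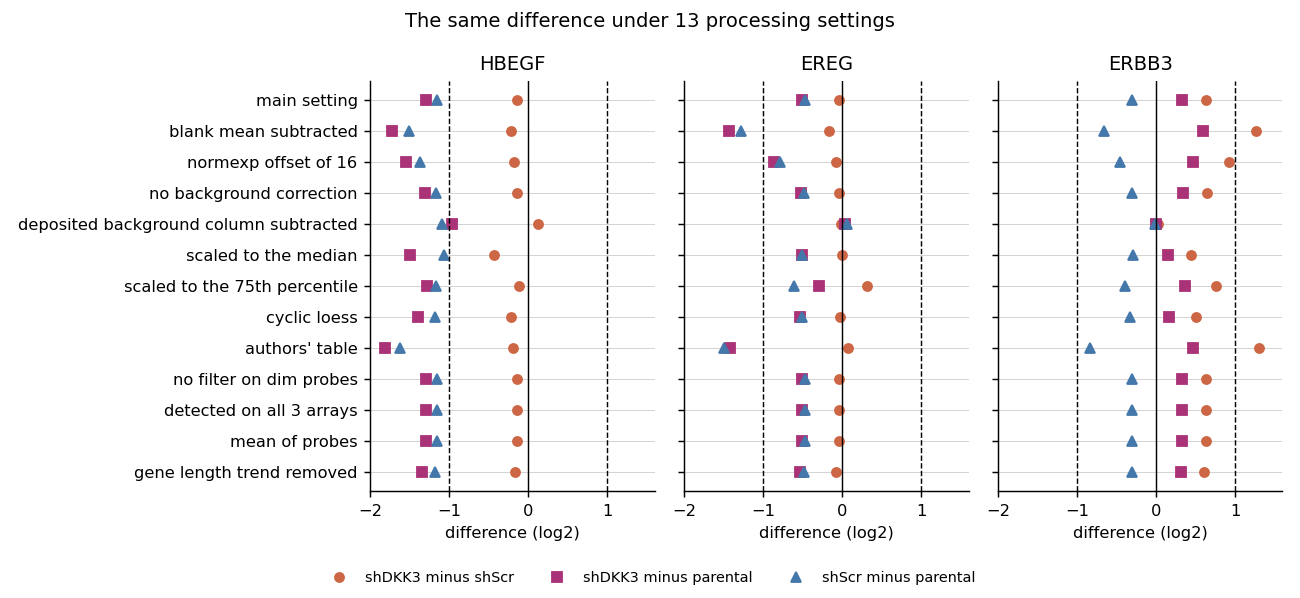
Log2 differences of HBEGF, EREG and ERBB3 in the 3 comparisons under the main and the 12 other processing settings, with dashed lines at 2-fold. HBEGF stays between -0.97 and -1.81 for shDKK3 against parental, whereas EREG and ERBB3 lie near 0 once the deposited background column is subtracted. In the authors' table and with the blank mean subtracted, EREG passes 2-fold against parental for both vector-bearing lines and ERBB3 passes it for shDKK3 against shScr alone.

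By its normalised values on the 3 arrays, each taken as the difference from the gene's own mean, HBEGF was most like PPP1R3D, DLGAP5 and ZNF22 among 13106 genes above the blanks on all arrays. Their Euclidean distances to HBEGF were 0.06, 0.07 and 0.09 (log2). DLGAP5, a mitotic spindle protein, had deposited intensities of 392 on parental, 160 on shScr and 134 on shDKK3. PPP1R3D, a glycogen-targeting subunit of protein phosphatase 1, had 74.6, 10.7 and 5.40 in the same order, and the zinc finger gene ZNF22 had 315, 108 and 90.4. Like HBEGF, on which they were chosen, they were past 2-fold against parental on both vector-bearing lines, which is a description. None of them was with the deposited background column subtracted, where they lay between -0.35 and -0.29 for shDKK3 and between -0.46 and -0.01 for shScr. DLGAP5 was past 2-fold for shScr under 8 of the 12 other settings. Likeness over 3 arrays is a weak description, since few values define it.

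The other ERBB receptors and ligands included a neuregulin with higher signal on both vector-bearing lines. Under the main settings 0 of these genes were past 2-fold, beside 0.404% to 4.48% of all genes by comparison and direction. Of 7 listed genes, 6 were compared in each comparison, and ERBB4 was not above the blanks on any array. Their median was -0.05 against shScr and 0.08 against parental, beside 0.03 for all genes in both. NRG1, a ligand of ERBB3 named after its values were seen, had deposited intensities of 390 on parental, 582 on shScr and 679 on shDKK3. It was 1.53-fold higher on shDKK3 and 1.59-fold higher on shScr than on parental, with a spread of 0.41 (log2), and differed by -0.06 between shDKK3 and shScr, within that spread. With the deposited background column subtracted it was at 2.17 for shScr and 0.86 for shDKK3 against parental, and at -1.30 for shDKK3 against shScr. EGF itself, the founding ligand, had the largest difference to shScr in this list at 0.13, which was within its spread of 0.18. Its deposited intensities were 33.1 on parental, 31.3 on shScr and 39.3 on shDKK3.

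Among 9 genes of ligand shedding and trafficking, 5 lay above shScr and 4 below it, beside 44.0% of all genes below it. TIMP3, an inhibitor of ADAM17 and of matrix metalloproteinases, was the 1 member of 9 at least 2-fold higher than shScr, beside 2.96% of all genes, at 1.19 (log2), and was at 0.75 against parental. Its deposited intensities were 47.5 on parental, 21.4 on shScr and 101.0 on shDKK3. The sheddases ADAM10 and ADAM17 were named after their values were seen. ADAM10 was at -0.82 against shScr and -0.99 against parental with a spread of 0.22, and its deposited intensity was 93.9, 73.1 and 26.8 on parental, shScr and shDKK3. ADAM17 was at -0.48 against shScr and -0.47 against parental with a spread of 0.17, and its deposited intensity was 42.1, 38.4 and 19.1. Between the controls they differed by -0.17 and 0.01, within their spreads. The list as a whole had a median of 0.00 against shScr and -0.08 against parental. Under the main settings 0 members were at least 2-fold lower in either comparison, beside 4.48% and 3.04% of all genes. ADAM10 was past 2-fold under 4 of the 12 other settings against shScr, down to -1.52, and 6 against parental, down to -1.81, and ADAM17 under 2 in each comparison. With the deposited background column subtracted, TIMP3 was at 0.02 and ADAM17 at -0.05 against shScr, and ADAM10 at -0.46.

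Of the receptor adaptors and effectors 11 lay above shScr and 10 below it, beside 44.0% of all genes below it. The medians of the list were 0.09 against shScr and 0.05 against parental over 21 genes measured of 26 listed. With the main settings 0 were at least 2-fold different from shScr, beside 2.96% of all genes higher and 4.48% lower. SHC1, an adaptor that links ERBB receptors to RAS, had the largest difference to shScr at 0.88, and 0.43 to parental. Its spread was 0.42, and it was at -0.45 for shScr against parental, so part of the 0.88 lay between the control arrays. Its difference to shScr was 0.10 with the deposited background column subtracted and past 2-fold with the blank mean subtracted, at 1.01, and in the authors' deposited table, at 1.15. Against parental 2 of the 21 genes were at least 2-fold lower, beside 3.04% of all genes, and both were named after their values were seen. PTPN11, the phosphatase SHP2, was at -1.41 and the endocytic adaptor EPS15, an EGFR substrate, at -1.25. EPS15 was at -0.87, short of 2-fold, with the deposited background column subtracted. Between the controls they were at -0.62 and -0.96, so part of each difference lay between the control arrays. Against shScr PTPN11 was at -0.79, beyond its spread of 0.44, and EPS15 at -0.30, within its spread of 0.45.

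Of 16 genes of receptor turnover and negative regulation, 1 was at least 2-fold lower than shScr and than parental, beside 4.48% and 3.04% of all genes in these comparisons. USP8, a deubiquitinase of endosomes that is known to spare ERBB receptors from degradation rather than to inhibit them, was 2.11-fold lower than shScr and 2.01-fold lower than parental (log2 differences -1.08 and -1.01). Its deposited intensity was 112 on parental, 110 on shScr and 34.1 on shDKK3, so the control arrays were alike and the shDKK3 array was low. The difference to parental was -0.91 with scaling to the 75th percentile, and with the deposited background column subtracted the differences were 0.00 and -0.17. The medians of the list were -0.08 against shScr and -0.14 against parental. At least 2-fold higher were 0 members, beside 2.96% and 0.862% of all genes.

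Of 15 genes known to be induced by ERK, 8 lay above shScr and 7 below it, beside 44.0% of all genes below it. The median of the 15 genes was 0.14 against shScr and -0.08 against parental. At least 2-fold lower than shScr were 0 members, beside 4.48% of all genes. EGR1, an immediate early transcription factor, was the 1 member of 15 at least 2-fold higher than shScr, at 1.43, beside 2.96% of all genes. Its deposited intensity was 159 on parental, 41.2 on shScr and 181 on shDKK3, so the shScr array stood apart, and EGR1 was at -1.23 for shScr against parental. These values were -0.01 and 0.03 with the deposited background column subtracted. DUSP6, the ERK phosphatase, named after its values were seen, was the 1 member of 15 at least 2-fold lower on shDKK3 than on parental, beside 3.04% of all genes, at -1.69, and was at -1.13 for shScr, but at 0.93 and -0.46 with the deposited background column subtracted. Its deposited intensities of 1435, 583 and 458 on parental, shScr and shDKK3 had the order seen for HBEGF. Between shScr and parental EGR1 and DUSP6 were the 2 members of 15 at least 2-fold lower, beside 0.983% of all genes.

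**Figure D4:**
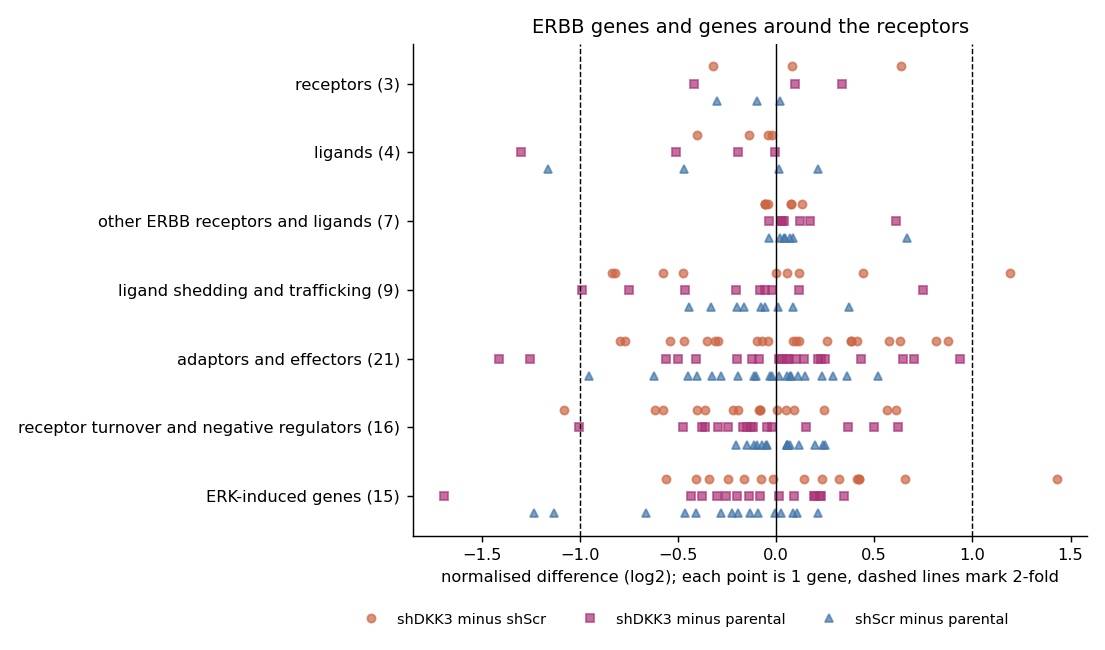
Normalised log2 differences of single genes in the 7 lists for the 3 comparisons, with the number of genes in brackets and dashed lines at 2-fold. EGR1 (1.43) and TIMP3 (1.19) are the points past 2-fold above shScr and USP8 (-1.08) the point past 2-fold below it; ERBB4, drawn here, was not above the blanks.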

How the data were processed

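Cy5-labelled amplified RNA was hybridised in a 1-colour design, per the labels' protocols. The deposited scanner intensity is the median brightness of each spot, joined from scans at 3 gains by fitted lines, per the file headers, and not background subtracted. The authors' deposited table of normalised intensity lies on straight lines of it, a relation read from the values. The slopes were 1.41, 1.83 and 1.04 scanner units per deposited unit on parental, shScr and shDKK3. Scanner values were corrected by normexp (limma 3.58.1, R 4.3.3, offset 50) and quantile normalised over gene probes on the log2 scale, leaving out 9 probes marked not good. A probe was detected above the mean plus 2 SD of 2680 blank spots, which 78.5% to 81.3% of probes were. The brightest probe stood for a gene, compared where its brighter array was detected. The robust SD of shScr minus parental over the 500 genes nearest in mean signal served as spread. Copies of positive control spots (24 per array) had SDs of 0.08 to 0.19 (log2). Differences of at least 2-fold were counted. Symbols came from the platform annotation. Members and lists were chosen with earlier results of these data known. Named are all members, list genes past 2-fold against both controls or else the one farthest from shScr, and 3 genes most like a member past 2-fold. Other list genes were named after their values were seen. The alternatives changed background correction, normalisation, filter, probe choice, threshold or the trend with gene length. The procedure was tested on simulated data in which only probes well above the blanks were changed and the background column was constant. That test does not cover dim probes or the subtraction of the deposited background column.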

Additional observations from a re-analysis of the deposited data

How the results depend on the processing

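No paired analysis was possible because each condition had 1 array. With the blank mean subtracted and in the authors' table, 1 member, ERBB3, was at least 2-fold higher on shDKK3 than on shScr. The shares of all genes were 9.4% and 14.8%. In both settings 2 members, HBEGF and EREG, were at least 2-fold lower than parental for shDKK3 and for shScr. For shDKK3 the shares of all genes were 11% and 10.9%, and for shScr the share in the authors' table was 6.35%. At 1.5-fold under the main settings, 1 member, ERBB3, was higher than shScr, and it lay at percentile 91.6 of all genes. With a threshold of 3-fold under the main settings, 0 members were lower than parental in either comparison. In the authors' table HBEGF was 3.51-fold lower than parental on shDKK3 and 3.08-fold lower on shScr, at percentiles 1.39 and 1.25 of all genes. With the deposited background column subtracted, 0 members and 249 genes in all were at least 2-fold lower on shDKK3 than on parental. HBEGF was then at -0.97. That column also put USP8 at 0.0038 and EGR1 at -0.0085 against shScr, DUSP6 at 0.93 for shDKK3 and EGR1 at 0.028 for shScr against parental, the opposite sign of the main values in each case. The cause was not tested. Scaling to the 75th percentile moved the median of the members against shScr to 0.32, with all genes at 0.36, and the authors' table moved that against parental to -0.47. HBEGF was lower than parental under all 12 alternatives, between -1.81 and -0.97 for shDKK3 and between -1.62 and -1.06 for shScr, and EREG under 11 of 12. The share of lower genes among those past 2-fold against shScr was 60.2%, but 84.9% with scaling to the median and 42.3% in the authors' table. Against parental it was 77.9% for shDKK3 and went from 53.3% to 91.8%, and for shScr 70.9% and from 48.7% to 85.4%. Of the counts and medians over the members, the 12 values given above moved and the other 108 did not. Of the values of single genes and the medians of the other gene lists, 833 did not move beyond the spread and 135 did. The other 4, values of single genes that were past 2-fold, changed sign, as given above. The spot values of dim probes, such as BTC, limit what can be seen.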
